A study of Ovis aries with 2 samples.

Results

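The ribosomal protein genes of the table were taken by symbol: every gene whose symbol starts with RPL or RPS and a digit, with RPLP0, RPLP1, RPLP2 and RPSA, leaving out the RPS6K kinases. This gave 80 members among 18161 genes. Of these, 41 encode proteins of the large (60S) subunit and 31 proteins of the small (40S) subunit. Paralogs of such genes account for 6 members (RPL3L, RPL7L1, RPL22L1, RPL26L1, RPL36AL and RPS27L), and 2 are other entries, namely RPS26-1, a further row of RPS26 whose reads may be split with it, and RPS19BP1, which encodes a protein that binds RPS19. RPL17, RPL39 and RPL41 have no row under these symbols, while RPL23 and RPL34 are listed by locus symbols that the rule does not take.

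Ribosomal proteins assemble with ribosomal RNA in the nucleolus into the subunits that translate mRNA. Their own mRNAs begin with a pyrimidine tract through which the TOR kinase and the protein LARP1 set how much of them is translated. In the hair follicle, slowly dividing stem cells supply the matrix of the bulb, whose fast-dividing progeny form the hair shaft and the inner root sheath (IRS) and fill with keratin before they die. In the interfollicular epidermis (IFE), basal cells move up, keratinize and cornify.

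The cells came from the body-side skin of Hu Sheep lambs at 3 days of age. Skins of straight wool lambs were pooled into one library and those of curly (waved) wool lambs into another, so that each wool type has 1 library. Isolated follicles and whole skin were dissociated separately and mixed before loading on the 10x Genomics platform. The pooled lambs cannot be told apart in the data, no comparison has a replicate, and no p-value is given.

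The straight library holds 6452 cells and 57956122 UMIs (molecules counted by their barcode), and the curly library 7585 cells and 77634565 UMIs, with medians of 7373.5 and 7495 UMIs per cell. The libraries share 70 cell barcodes. Clustering was run without any ribosomal protein gene, so the classes were not drawn by the genes described here. Of 29 clusters, 19 could be named from markers as 14 classes that hold 68.9% of the cells. Class names end in "-like" for this reason. HFSC stands for hair follicle stem cell and DPC for dermal papilla cell. Levels are the UMIs of a gene in a class of a library, scaled to counts per 1e6 UMIs of that class (CPM). Exact Poisson or Clopper-Pearson 95% intervals cover counting error only, not differences between cells or between lambs.

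Members took 38.0% of all UMIs. They held 69 of the 100 gene rows with the most UMIs, and a median of 685307 UMIs per member stood against 664 over all genes. RPLP1, an acidic protein of the stalk that recruits translation factors, had the most UMIs (1648871), and the 40S protein RPS12 (1223672) and the 60S protein RPL32 (1093771) were also among the leading 5. The leading 5 made up 12.8% of the ribosomal protein UMIs. At the other end, RPL3L, the paralog of RPL3 known from striated muscle, had 4 UMIs in the whole table, all in the curly library, 2 of them in contractile-like cells. A count of 0 in the straight library allows up to 3 UMIs, or 0.0518 CPM. RPL7L1 (8750), RPL26L1 (11552), RPS19BP1 (14773) and RPS27L (39061 UMIs) came next. No member was at 0 in both libraries.

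The share of UMIs that ribosomal protein genes took was highest in the cells of the follicle bulb. IRS-like cells had 44.5% in the straight and 48.9% in the curly library, hair shaft-like cells 45.8% and 46.1%, and matrix-like cells 44.3% and 46.3%. These 3 classes led in both libraries, although their order differed. Cycling matrix-like cells, which carry the mitotic genes TOP2A and MKI67, had less, 40.7% and 42.8%. DPC-like cells, the dermal signalling centre inside the bulb, had 39.9% and 40.6%. This class is cluster 4 only. The unnamed cluster 3 also scored best for DPC-like (3.33), but too close to fibroblast-like (2.895) for a name. Its shares were 36.0% and 35.9%.

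Stem-like and epidermal cells came lower. Basal IFE-like cells had 38.2% and 38.4%, and HFSC-like cells 34.8% and 38.9%. The HFSC-like class joins clusters 8 and 12, at 34.7% and 34.8% in the straight and 39.8% and 37.4% in the curly library, so both lay below the matrix-like cells of their library. Suprabasal IFE-like cells had 32.5% and 29.7%. Their 3 clusters were uneven, since cluster 7 stood at 37.6% and 36.1% against 30.6% and 27.0% in cluster 2 and 27.6% and 26.7% in cluster 19. Cycling basal IFE-like cells, at 31.7% and 32.6%, lay below the basal IFE-like cells, as cycling matrix-like cells lay below the matrix-like class. The cycling names rest on genes such as TOP2A and MKI67, and the other classes may hold dividing cells too.

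In the gland and outside the epithelium, the shares were 35.7% and 32.3% in luminal gland-like, 36.6% and 30.6% in endothelial-like, 32.7% and 30.3% in immune-like and 31.0% and 27.5% in contractile-like cells. The last 2 classes each join 2 clusters. Contractile-like cells had 31.7% and 26.7% in cluster 15 but 29.7% and 30.4% in cluster 20. Immune-like cells had 33.0% and 33.3% in cluster 14, and cluster 27 had too few cells for a value. Fibroblast-like cells were lowest, at 23.3% (95% interval 23.1 to 23.6) and 24.9% (24.6 to 25.2). These were also the shallowest named cells, with medians of 902 and 864 UMIs per cell, against 14841 and 16575 in matrix-like cells. The part of depth in the order of the classes was not tested. The unnamed cluster 0, with medians of 718 and 864 UMIs, had shares of 26.0% and 32.5%. The lowest share of any cluster was 8.87%, in the 64 curly cells of the unnamed cluster 25.

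**Figure D1:**
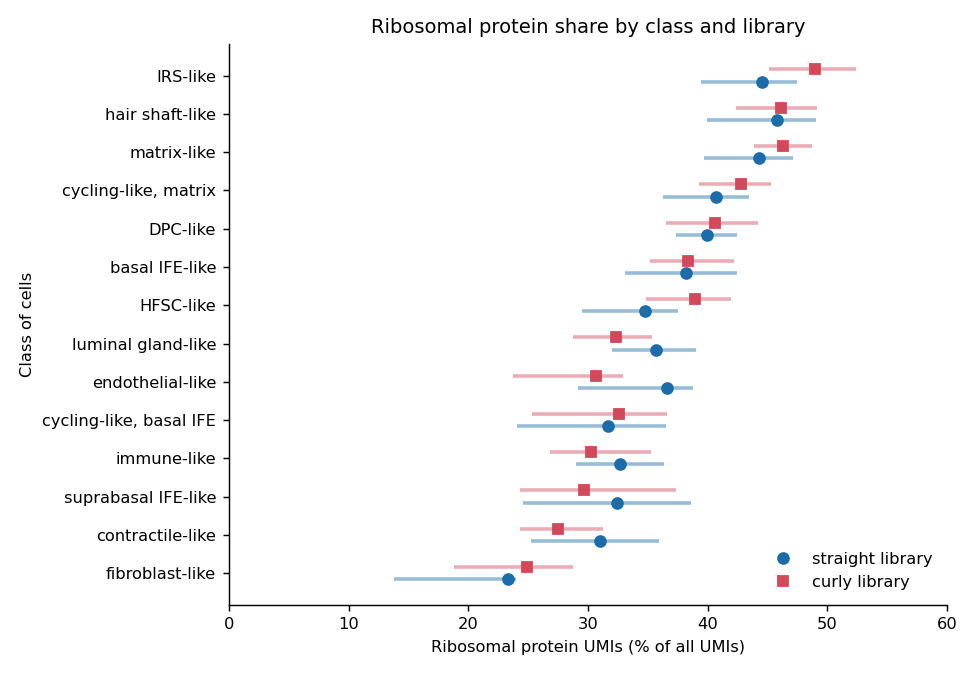
Share of all UMIs (x axis, %) that ribosomal protein genes took in each of the 14 classes (y axis), with circles for the straight and squares for the curly library, and lines from the lower to the upper quartile of the shares of single cells. The 3 bulb classes reach 44.3 to 48.9%, and the fibroblast-like cells lie lowest, at 23.3 and 24.9%.

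The subunits kept step. Of the UMIs of the 40S and 60S members together, the 40S members took between 43.7% in curly contractile-like cells and 47.2% in curly hair shaft-like cells, the lowest and the highest of all classes and libraries. In matrix-like cells this was 45.9% and 46.1%, and in HFSC-like cells 46.2% and 47.0%.

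Matrix-like cells were set against the IRS-like cells to ask how the members differ as the follicle's inner sheath forms. The share of the whole set was close in both classes, with a log2 ratio of IRS-like over matrix-like of 0.01 in the straight and 0.08 in the curly library. With the mean of the shares of single cells, the straight value was -0.00128. Of 79 members with at least 100 UMIs in each of the 4 sums, 0 were at least 1.5-fold lower in both libraries and 0 were at least 1.5-fold higher, where 9.44% and 5.5% of all 2745 genes with such counts were. Among genes with at least 1000 UMIs in each sum, which is nearer to the level of most members, these shares were 4.79% and 1.41%. Members above 0 in both libraries numbered 43 and those below 0 in both numbered 9. Counts by sign, here and in the comparisons further on, were not made over all genes tested. Only the medians of all genes stand beside them. The median log2 ratio of the members was 0.01 and 0.07, and that of all genes tested -0.09 and -0.23.

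The members farthest from 0 in IRS-like cells were mostly paralogs with few UMIs. RPL26L1 was lower, by log2 ratios of -0.37 and -0.66, followed by RPS27L (-0.43 and -0.19) and RPS19BP1 (-0.20 and -0.09). RPL22 (-0.09 and -0.03) and RPL36AL (-0.05 and -0.05) completed the lowest 5. RPL7L1, which works in the assembly of the 60S subunit, was higher (0.48 and 0.18), as were RPL22L1 (0.14 and 0.45), RPS26-1 (0.11 and 0.31), RPS12 (0.12 and 0.30) and RPS26 (0.13 and 0.27).

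To follow the lineage inside the classes, matrix-like and IRS-like cells were ordered by the UMIs of the IRS keratins KRT71, KRT25, KRT27 and KRT28 in percent of the UMIs of other genes. These genes and the limits of the bins, like those of the bins further on, were set with the data in view. In the curly library the share of the ribosomal protein genes was 46.8% below 0.1% IRS keratin, 49.7% from 0.3 to 1%, 51.7% from 1 to 3%, 49.3% from 3 to 10%, and 40.4% in the 41 cells above 10%. It thus went up and came down again. In the straight library it was 44.4% at the start, 45.4% from 1 to 3%, 47.4% from 3 to 10% and 37.0% above 10%, with only 18 and 12 cells in the last bins. With all keratin genes and the binning genes left out of the total, the last bins stood at 41.0% and 45.9%. The median number of ribosomal protein UMIs per curly cell was 8009 in the first, 10152 in the 1 to 3% and 12132 in the last bin, so that the lower share above 10% came with more ribosomal protein UMIs there. In the straight library these medians were 7062, 8565 and 5690, the last over 12 cells.

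**Figure D2:**
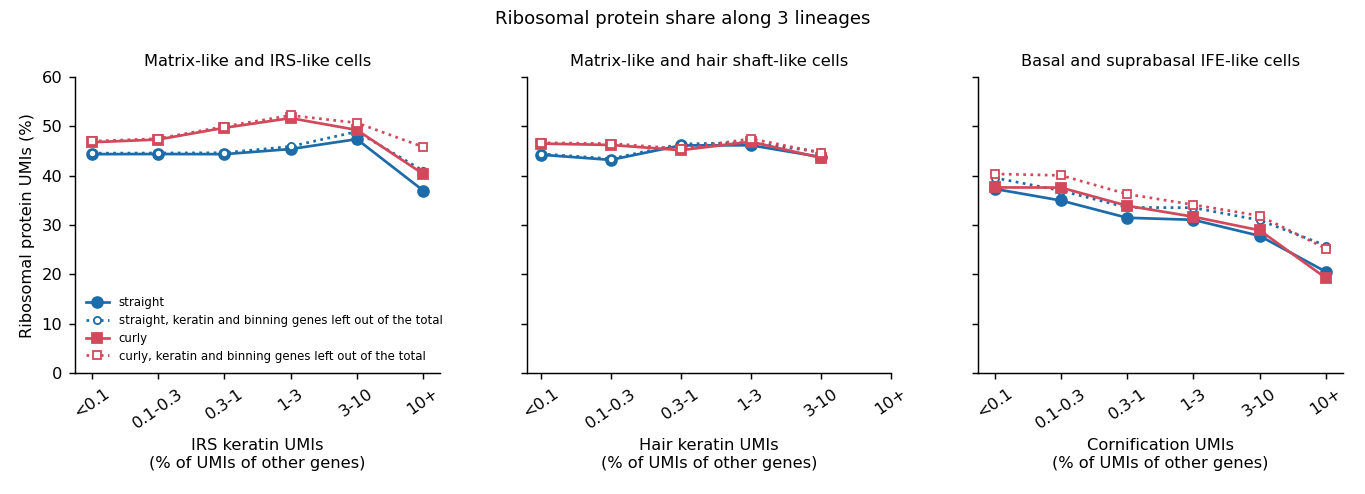
Share of UMIs taken by ribosomal protein genes (y axis, %) in cells binned by the UMIs of differentiation genes in percent of the UMIs of other genes (x axis): IRS keratins, hair keratins, and cornification genes, in one panel each. Filled circles (straight) and squares (curly) use all UMIs, and open symbols leave keratin and binning genes out of the total. The share lies at 43.2 to 46.9% across the hair keratin bins and goes from 37.4 to 20.5% (straight) and from 37.6 to 19.3% (curly) along cornification.

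In the hair shaft-like cells the share of the set as a whole was again close to that in matrix-like cells, but 2 members stood apart. The log2 ratio of the share over matrix-like cells was 0.05 in the straight and -0.01 in the curly library, which lie on either side of 0. With keratin and TCHH UMIs left out of the total, both were above 0 (0.06 and 0.00983). Along bins of hair keratin UMIs (KRT35, KRT84, KRT36, KRT82, KRT32, KRT39 and KRT40) the share lay between 43.2% and 46.9% in all 5 bins of both libraries, and the bin with the most hair keratin (3 to 10%) stood at 43.8% and 43.6%. The unnamed cluster 28, with KRT2.11 among its leading genes, was not in these bins. Its best score was for the hair shaft-like class (0.70), below the 1.5 needed for a name. Its share was 31.7% in 26 straight cells, and its 15 curly cells were too few for a value. Of the 79 members, 1 (RPS27L) was at least 1.5-fold lower in both libraries and 1 (RPS12) was higher, where 10.7% and 6.4% of all 2627 genes tested were (7.51% and 5.71% of those with at least 1000 UMIs).

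RPS27L, a paralog of RPS27 and a known target of p53, stood in matrix-like cells at 357 CPM (straight) and 301 CPM (curly), and in hair shaft-like cells at 91.3 CPM (straight) and 74.8 CPM (curly). The libraries did not overlap between the classes. The log2 ratio was -1.97 (95% interval -2.14 to -1.79) in the straight and -2.01 (95% interval -2.15 to -1.87) in the curly library. Its parent RPS27 went slightly the other way, at 0.22 and 0.17. Per 100 UMIs of RPS27 there were 10.2 and 8.004 UMIs of RPS27L in matrix-like cells and 2.25 and 1.77 in hair shaft-like cells, the lowest of the 14 classes in both libraries.

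The level of RPS27L followed the hair keratins bin by bin. In the straight library it was 380.1, 279, 140.1, 95.1 and 48.4 CPM from the lowest to the highest of the 5 bins, and in the curly library 318, 285, 183, 88.5 and 35.5 CPM. Each bin was below the one before it in both libraries. Along the IRS keratin bins RPS27L showed no such order, with 291 CPM in the first, 236 CPM in the 0.3 to 1%, 389 CPM in the 3 to 10% and 309 CPM in the last curly bin.

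RPS12, a protein of the 40S head, was the member with the largest positive ratio. Matrix-like cells had 9290 CPM (straight) and 9463 CPM (curly) and hair shaft-like cells 14675 and 14570 CPM, a log2 ratio of 0.66 (95% interval 0.64 to 0.68) and 0.62 (95% interval 0.61 to 0.64). Along the hair keratin bins it went from 9215 to 17288 CPM in the straight and from 9334 to 16218 CPM in the curly library. In IRS-like cells it was 10090 and 11615 CPM, between the other two classes in both libraries. Along the IRS keratin bins RPS12 also went up and then came down. The straight library had 9357 CPM in the first, 12675 CPM in the 3 to 10% and 10636 CPM in the last bin (18 and 12 cells in the latter bins). The curly library had 9549 CPM in the first, 13404 CPM in the 1 to 3% and 11179 CPM in the last bin.

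**Figure D3:**
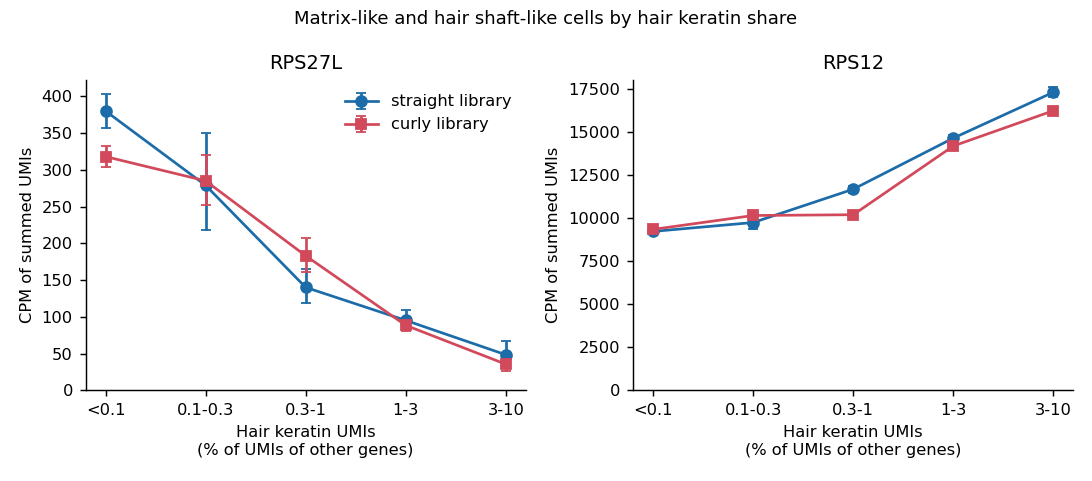
CPM of summed UMIs (y axis) of RPS27L and RPS12 in matrix-like and hair shaft-like cells binned by hair keratin UMIs in percent of the UMIs of other genes (x axis), with circles for the straight and squares for the curly library and exact Poisson 95% intervals. RPS27L goes from 380.1 and 318 to 48.4 and 35.5 CPM, while RPS12 goes up in both libraries.

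The other members were nearer to 0. RPL26L1 (-0.70 and -0.44), RPL36AL (-0.22 and -0.26), RPL35 (-0.15 and -0.23) and RPL24 (-0.17 and -0.19) were the next lowest. RPLP2, like RPLP1 a stalk protein (0.26 and 0.22), RPL21 (0.25 and 0.17), RPS23, which sits at the decoding centre (0.19 and 0.20), and RPS27 followed RPS12.

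Between HFSC-like and matrix-like cells the set differed most among the follicle comparisons. The log2 ratio of its share was -0.35 in the straight and -0.25 in the curly library. HFSC-like cells had medians of 2459 and 2409 ribosomal protein UMIs per cell and matrix-like cells 6607 and 7720, while all UMIs per cell were 7067 and 6167 against 14841 and 16575. The median log2 ratio of the members was -0.39 and -0.26, against -0.04 and -0.08 over all 2281 genes tested. Members below 0 in both libraries numbered 63, and 5 were above 0 in both. HFSC-like cells of the libraries differed in IFI6, an interferon-induced gene, which had 8.65 CPM in the straight and 13491 CPM in the curly library, and the part of this response in the curly values was not tested.

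At least 1.5-fold lower in HFSC-like cells of both libraries were 7 of the 79 members, where 16.2% of all genes tested and 14.2% of those with at least 1000 UMIs were. At least 1.5-fold higher were 0, where 15% and 11.1% were. The 7 were the 60S members RPLP0, RPL15, RPL3 and RPL8, the 40S members RPS2 and RPS4X, and the paralog RPL26L1. In either direction, the share of members past the fold was below that of all genes tested.

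RPS2, which lines the channel where mRNA enters the ribosome, had 3453 CPM (straight) and 3984 CPM (curly) in HFSC-like cells, against 7155 and 9073 CPM in the matrix-like class. Its log2 ratio was -1.05 (95% interval -1.08 to -1.02) and -1.19 (95% interval -1.21 to -1.16), the lowest member by the mean of the libraries and in the straight library. RPLP0, the base of the stalk, was at 5135 and 4611 against 10090 and 10518 CPM, a log2 ratio of -0.97 and -1.19. RPLP1 did not go with it, and RPLP2 lay between them. RPLP1 was at 11507 and 12828 against 12174 and 11914 CPM (log2 ratios -0.08 and 0.11), and RPLP2 at 4537 and 5143 against 6680 and 7261 CPM (log2 ratios -0.56 and -0.50).

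Of the others, RPL15 had log2 ratios of -0.86 and -0.91, RPL26L1 -0.85 and -0.91, and RPL3, part of the peptidyl transferase region, -0.77 and -0.79. RPL8 had -0.77 and -0.61 and the X-encoded RPS4X -0.70 and -0.85. RPLP0 and RPS2 were low in each of the HFSC-like clusters. In cluster 8 RPLP0 had log2 ratios over matrix-like cells of -1.16 and -1.22 and RPS2 -1.20 and -1.28, and in cluster 12 RPLP0 had -0.91 and -1.14 and RPS2 -0.996 and -1.03. RPL26L1 was uneven, at -0.22 and -0.73 in cluster 8 (sums of 97 and 229 UMIs) and -1.21 and -1.28 in cluster 12 (sums of 122 and 88 UMIs).

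Among the 5 members above 0 in both libraries were RPL23A at the exit of the peptide tunnel (0.13 and 0.20), RPS27 (0.07 and 0.19), RPS24 (0.04 and 0.11) and RPL26 (0.06 and 0.07). RPSA, the small-subunit protein also known as the laminin receptor, had -0.37 and -0.36.

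**Figure D4:**
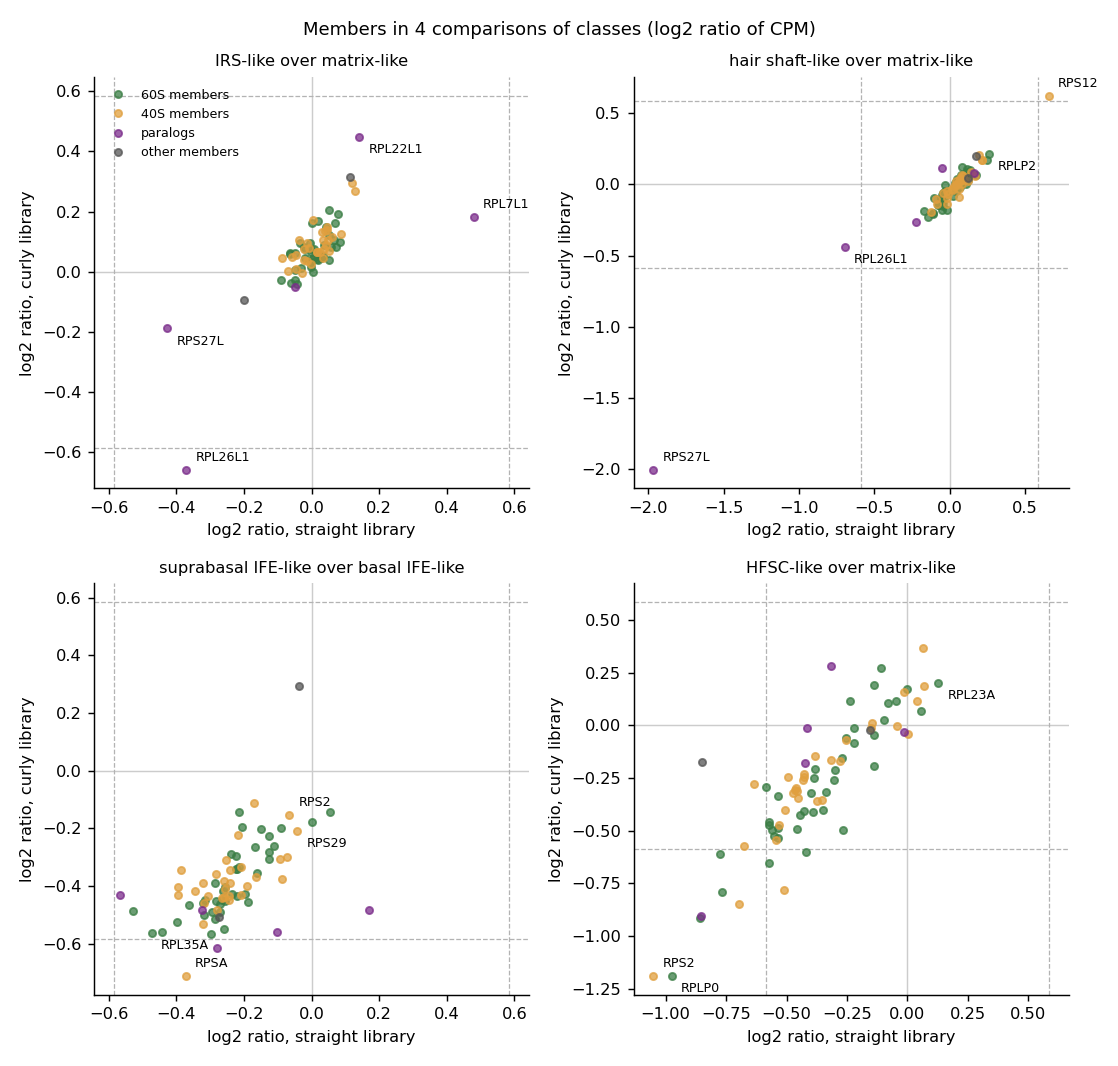
Log2 ratio of CPM of each member between 2 classes in the straight (x axis) and the curly library (y axis), in one panel for each of the 4 comparisons, colored by 60S, 40S, paralog and other members. Dashed lines mark 1.5-fold, which only RPS27L and RPS12 pass in both libraries in the hair shaft-like panel and 7 members in the HFSC-like panel.

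In the epidermis, suprabasal IFE-like cells had a lower share than basal IFE-like cells, with a log2 ratio of -0.23 in the straight and -0.37 in the curly library. Cluster 7 was the only one of their clusters with KRT1, KRT2 and KRT10 among its 10 leading genes. It stood at 37.6% and 36.1%, near the 38.2% and 38.4% of basal IFE-like cells. Clusters 2 and 19 were lower, as given above. KRT79 and CST6 were among the 10 leading genes of cluster 2, and FLG and CNFN among those of cluster 19. Of 79 members, 75 were below 0 in both libraries and 0 above. The median of all genes tested was below 0 in both libraries as well, so this count alone does not set the members apart. None was 1.5-fold lower or higher in both, where 12.7% and 5.06% of all 2984 genes tested were (8.81% and 5.97% of those with at least 1000 UMIs). The median log2 ratio of the members was -0.25 and -0.42, and that of all genes tested -0.22 and -0.26. In the straight library the members thus lay close to the median gene. With the 20 most abundant other genes of each class left out of the total, a setting added after seeing the data, the mean ratio of the share over the libraries was -0.18 in place of -0.30.

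The lowest members were RPSA (-0.37 and -0.71), RPL35A (-0.47 and -0.56), RPL36A (-0.53 and -0.48), RPL23A (-0.44 and -0.56) and RPL26L1 (-0.57 and -0.43). RPSA was at 5869 and 5544 CPM in basal and 4537 and 3384 CPM in suprabasal IFE-like cells. Of the 75 members below 0 in both libraries, those nearest to 0 were RPS2 (-0.07 and -0.15), RPS29 (-0.04 and -0.21), RPS12 (-0.17 and -0.11), RPLP2 (-0.09 and -0.20) and RPL11 (-0.15 and -0.20), which with RPL5 binds 5S ribosomal RNA. RPLP1 (0.05 and -0.14), RPLP0 (0.00262 and -0.18) and RPS19BP1 (-0.04 and 0.29) had opposite signs in the libraries.

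The lower share was most marked where cells cornify. Basal and suprabasal IFE-like cells were binned by the UMIs of LOR, FLG, CNFN, CST6, ASPRV1 and CDSN, genes of the cornified envelope and the granular layer, in percent of other UMIs. From the lowest to the highest of the 6 bins, the share of the ribosomal protein genes was 37.4, 34.998, 31.5, 31.1, 27.8 and 20.5% in the straight library. In the curly library it was 37.6, 37.6, 33.9, 31.7, 29.0 and 19.3%. Every step was downward in the straight library, and from the second bin on in the curly library, whose first 2 bins were equal at this precision. With keratin and binning genes left out of the total, the last bins stood at 25.8 and 25.3% and the first at 39.6 and 40.4%.

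The last bins did not hold fewer ribosomal protein UMIs per cell than the first. The median per cell was 3631 in the first and 3790 in the last straight bin, and 3260 and 4062 in the curly bins. In between, the straight median fell to 2911 and 3016 in the second and the third bin, so that the first steps down in share did come with fewer, and the curly median to 3102 and 3177. The median of all other UMIs went from 5868 to 14374 and from 5049 to 15835.

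Between the cells with at least 10% cornification UMIs (60 straight and 179 curly cells) and those under 0.3% (1190 and 743 cells), 73 of 76 members tested were at least 1.5-fold lower in both libraries, where 24.3% of 964 genes tested were. No member was higher, where 20.4% of genes were. The median log2 ratio was -0.85 and -1.01 for members and -0.09 and -0.20 for all genes tested. CPM is a share of the total, and the part of the other UMIs in this count was not tested. The members' own UMIs per cell, given above, belong beside it, although their first bin ends at 0.1% and not at 0.3%. With keratin, TCHH and cornification UMIs left out of the total, the mean ratio of the share over the libraries was -0.63 in place of -0.90. Among the 3 exceptions, named after their values were seen, were RPLP1 (-0.56 and -0.88) and RPS28 (-0.55 and -0.81). The paralog RPL22L1 was lowest, going from 540.1 to 141 CPM in the straight and from 406 to 123 CPM in the curly library.

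When the same epidermal cells were binned by the spinous keratins KRT1, KRT10 and KRT2 instead, the order was less regular. The straight share went from 36.6% to 29.1% between the first and the last bin. The curly share was 34.1% in the first, 28.1% in the 0.3 to 1% and 31.2% in the last bin. The median share of single cells was 38.3%, 34.9% and 30.0% in these curly bins, and 37.1% and 26.2% in the first and the last straight bin.

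Members differed in how steady their proportion of the ribosomal protein UMIs was over the classes. Over the 14 classes, the highest over the lowest proportion of a member, averaged over the libraries on the log2 scale, had a median of 0.51 among the 78 members with at least 10000 UMIs, and it was under 1 for 72 of them. RPL13A was the steadiest (0.24), followed by RPS16 (0.28), the ubiquitin fusion gene RPS27A (0.28) and RPL12 (0.29). RPL13A made up 1.42 to 1.64% of ribosomal protein UMIs in the straight and 1.41 to 1.71% in the curly library. The 6 members over 1 were RPS27L (3.21), RPL26L1 (1.75), RPL36AL (1.42), RPL22L1 (1.31), RPS2 (1.23) and RPS19BP1 (1.06). Of these, RPS2 was the only gene of a core ribosomal protein. These ranges include the shallow fibroblast-like class, where RPL26L1 rests on few UMIs.

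Among the paralogs with countable levels, RPL36AL came nearest to its parent RPL36A. UMIs count molecules whatever their length, and matrix-like cells had 65.7 and 55.5 UMIs of RPL36AL per 100 of RPL36A in the straight and curly libraries. Immune-like cells had 150.2 and 147, fibroblast-like cells 129 and 134, and hair shaft-like cells 49.8 and 44.2. The paralog thus outnumbered its parent in immune-like and fibroblast-like cells of both libraries, and was lowest against it in hair shaft-like cells of both.

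RPL22L1 had 24.3 and 22.6 UMIs per 100 of RPL22 in matrix-like and 28.5 and 31.4 in IRS-like cells, but 15.4 and 11.4 in basal IFE-like and 13.7 and 10.0 in contractile-like cells. Endothelial-like cells had the most in both libraries, 35.7 and 35.6. RPL26L1 had 2.76 and 2.86 per 100 of RPL26 in matrix-like cells and 1.47 and 1.46 in HFSC-like cells. RPL7L1 had 1.12 and 0.835 per 100 of RPL7 in matrix-like cells and 0.564 and 0.548 in DPC-like cells. It had more in endothelial-like (1.91 and 2.80) and contractile-like cells (1.61 and 2.07). Fibroblast-like cells had 4.25 and 2.67, from only 11 and 7 UMIs of RPL7L1. Reads shared between a paralog and its parent or their pseudogenes may have been split or dropped in counting, and these ratios carry that limit.

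Other genes that build or serve the ribosome were counted from lists of known genes. Of 12 ribosome biogenesis factors tested between HFSC-like and matrix-like cells (of 31 in the table), 9 were at least 1.5-fold lower in both libraries, beside the 16.2% of all genes given above, with a median log2 ratio of -1.13 and -1.30. DKC1, the pseudouridine synthase of the nucleolus (-1.95 and -2.40), and FBL, which methylates ribosomal RNA (-1.92 and -1.98), were lowest. NPM1 (-1.19 and -1.54) and NCL (-1.24 and -1.30), the nucleolar proteins with the most UMIs of the list, were also lower. DDX21 (-0.35 and -1.03) and NOP16 (-0.36 and -0.63) were nearest to 0. The median of these assembly factors was thus farther from 0 than that of the members, -0.39 and -0.26.

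Mitochondrial ribosomal proteins, which serve the separate ribosome of the mitochondrion, were lower in HFSC-like cells for 18 of 49 tested, beside the 16.2% of all genes (median -0.58 and -0.53) and higher for 0, beside 15%. MRPL13 (-1.75 and -1.72) and MRPL41 (-1.37 and -1.51) were lowest, and MRPL14 (0.44 and 0.37) and MRPL54 (0.35 and 0.59) highest. MRPL52 (-0.45 and -0.32) and MRPL23 (-1.03 and -0.78) had the most UMIs of this list.

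Of 30 translation factors tested, 7 were lower and 2 higher in HFSC-like cells, beside 16.2% and 15% of all genes tested. EIF2S3 (-0.91 and -1.77) and EIF5A (-1.21 and -1.42) were lowest. TPT1, whose mRNA carries the same pyrimidine tract as those of the members (1.24 and 1.79), and EIF4A2 (0.69 and 0.69) were the 2 higher. EEF1G, which with TPT1 had the most UMIs of this list, had -0.84 and -0.96. Of the ribosomal genes whose symbols the rule does not take, RACK1 on the 40S head was lower (-0.63 and -0.82), while FAU, which encodes a ribosomal protein fused to a ubiquitin-like protein, lay above 0 (0.38 and 0.34).

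RNA polymerase I subunits and factors gave few genes with enough UMIs. In HFSC-like cells 0 of 3 tested passed the fold (TAF1D -0.14 and -0.89, POLR1D 0.77 and 0.56, UBTF -0.22 and 0.11), and in IRS-like cells UBTF was lower (-0.65 and -0.61). In the list of TOR and LARP1 genes, EIF4EBP1, a brake on translation that TOR releases, had -0.34 and -0.30 in HFSC-like, -0.33 and -0.49 in IRS-like, -0.78 and -0.38 in hair shaft-like and -0.40 and -0.92 in suprabasal IFE-like cells. LARP1 had 0.46 and 0.47 in hair shaft-like and 0.33 and 0.14 in IRS-like cells. MYC, which drives transcription of ribosomal genes, had 0.10 and 0.25 in IRS-like, 0.18 and -0.41 in hair shaft-like, 0.31 and 0.32 in suprabasal IFE-like and -0.05 and -0.95 in HFSC-like cells.

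In the other comparisons fewer genes of these lists passed the fold. All genes tested passed it downward for 9.44% and upward for 5.5% in IRS-like, 10.7% and 6.4% in hair shaft-like and 12.7% and 5.06% in suprabasal IFE-like cells. In IRS-like cells 1 of 20 biogenesis factors was higher, WDR43 (0.92 and 1.0), and 10 of 66 mitochondrial ribosomal proteins were lower, led by MRPS6 (-0.85 and -1.14) and MRPS5 (-0.99 and -0.75), with MRPL17 highest (0.55 and 0.34). DKC1 (-0.45 and -0.68) was the lowest biogenesis factor there. In hair shaft-like cells 0 of 19 biogenesis factors and 5 of 62 mitochondrial ribosomal proteins were lower, among them MRPL39 (-0.89 and -0.84), and the nucleolar NPM1 (-0.53 and -0.90) and NCL (-0.42 and -0.67) lay below 0 in both libraries. In suprabasal IFE-like cells 1 of 14 biogenesis factors was lower, NOP58 (-0.63 and -0.68), 1 of 62 mitochondrial ribosomal proteins was lower, MRPS23 (-0.67 and -0.60), and EIF4EBP2 was higher (0.61 and 0.65). The highest values of these lists were MRPS33 (0.61 and 0.56) and NHP2 (0.26 and 0.31) in hair shaft-like and MRPS25 (0.49 and 0.61) in suprabasal IFE-like cells, where NHP2 was low (-0.56 and -0.82). No translation factor passed the fold in these 3 comparisons. Those farthest from 0 were EIF2S3 and EIF4E in IRS-like cells (-0.24 and -0.37, and 1.08 and 0.14), EIF3E and EIF2S2 in hair shaft-like cells (-0.31 and -0.43, and 0.42 and 0.46), and TPT1 and EIF4G1 in suprabasal IFE-like cells (-0.48 and -0.70, and 0.61 and 0.51).

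The 2 libraries were compared as libraries, since 1 pool per wool type cannot separate wool type from lambs, dissociation or sequencing. The share of the ribosomal protein genes was higher in the curly library in 9 of 14 classes. Cluster 14 of the immune-like and cluster 20 of the contractile-like cells went the other way from their class. In matrix-like cells the log2 ratio of curly over straight was 0.06 (0.15 from means of the shares of single cells), and 61 of 79 members tested were above 0. The median log2 ratio there was 0.07 for the members and -0.07 for all genes tested. At least 1.5-fold lower in the curly library was 1 member, where 5.31% of 2974 genes were, and 0 were higher, where 1.61% were. IFI6 was at 2.12 CPM in the straight and 378 CPM in the curly matrix-like class, so the libraries also differ in this gene. Its part in the values of the members was not tested.

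The member lower in the curly library was RPL37A, a zinc-binding protein of the 60S subunit. In the matrix-like class the straight library had 5909 CPM and the curly library 2612 CPM, a log2 ratio of -1.18 (95% interval -1.21 to -1.15). It was lower in each of the 14 classes, by log2 ratios from -1.49 to -1.05, and at least 1.5-fold in every one. Among the 69 members with at least 100 UMIs in both sums of all 14 classes, it was the only one past the fold in most classes. The same count was not made over all genes. The 14 classes come from the same 2 libraries and are not independent of each other. Its CPM counts UMIs assigned to this gene row, and whether copies of the gene, read mapping or alleles bear on that assignment was not tested.

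Of the same 69 members, 2 others had 1 sign in all 14 classes, and both were higher in the curly library. They were RPS9, with log2 ratios from 0.08 to 0.59, and RPL19, from 0.01 to 0.36. How many of all genes keep 1 sign over the classes was not counted. In matrix-like cells, RPS2 was highest (0.34), followed by RPS9 (0.24), RPL8 (0.23), RPL5 (0.22) and RPL24 (0.21). After RPL37A, the lowest were RPL7L1 (-0.32), RPS27L (-0.25), RPS3 (-0.15) and RPS26-1 (-0.10). In endothelial-like cells 8 of 76 members were at least 1.5-fold lower in the curly library, beside 4.99% of 1042 genes, and the median member was at -0.25 there. These cells had medians of 5306 UMIs in the straight and 3820 in the curly library.

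**Figure D5:**
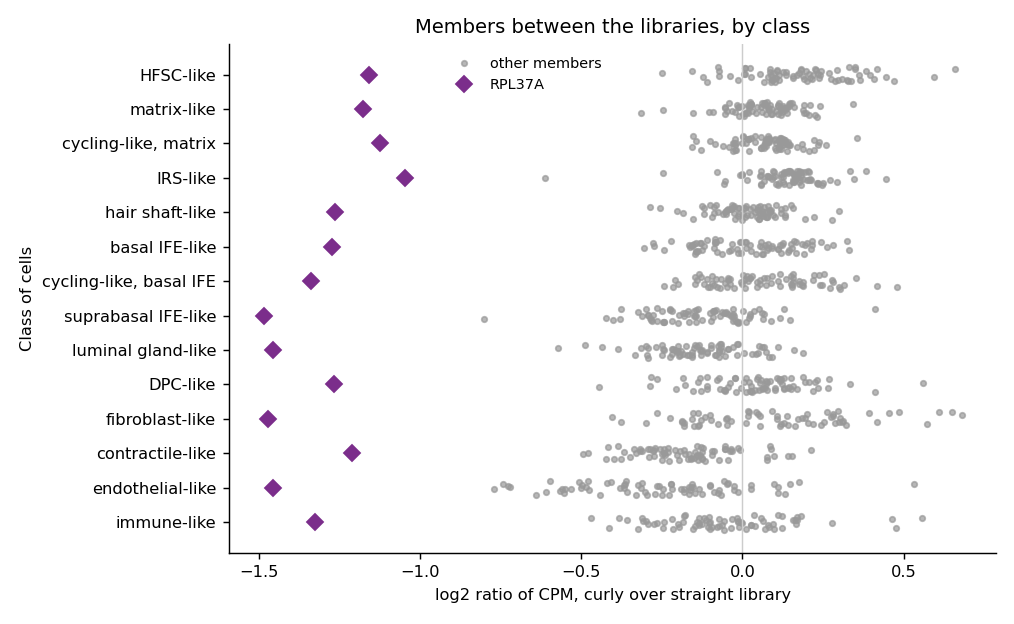
Log2 ratio of CPM of curly over straight library (x axis) for each member (points) in each of the 14 classes (y axis), with RPL37A as diamonds. RPL37A lies between -1.49 and -1.05 in all classes, left of every other member in each.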

How the data were processed

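Reads were aligned by the authors to the assembly Oar_rambouillet_v1.0, and UMIs were counted with Cell Ranger (version 3.0.2 in the submitters' processing notes, while the methods of the study name another). The authors filtered the cells and deposited 1 table of natural log values, ln(1 + UMIs per 10000 of a cell), a scale read from the values. The plan of the comparisons had taken the file to hold raw counts. UMI counts were calculated back, and 100% of 28552149 values above 0 gave a whole number within 0.01.

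Cells were integrated on 2000 variable genes and 30 dimensions in Seurat 5.3.0 (R 4.3.3) without ribosomal protein genes, and clustered at resolution 0.6. Each cluster took the name of its best-scoring class (score: markers' mean log2 enrichment against all remaining clusters, 5 CPM added), with a score of at least 1.5 and at least 1 above any other class that reached 1.5, with 3 markers in at least 10% of its cells each, no other class with more markers among its 10 leading genes, and no low depth without such a marker. UMIs were summed per class and library (at least 25 cells) in Python 3.11.15 with scipy 1.17.1. Ratios have exact intervals from the binomial split of 2 sums. Free RNA was not removed. Doublets were kept, since Scrublet in scanpy 1.11.5 called only 0.499% of cells, and 842 cells with the highest 6% of scores were left out as an alternative.

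The members and gene lists were chosen with earlier results of these data known, and the resolution, naming limits, bin genes and bin limits after the data had been seen. Genes named are the 5 members with the most and the fewest UMIs, the 5 lowest and 5 highest per comparison with 1 sign in both libraries, paralogs, RPSA, the stalk members, and of the other lists the 2 with most UMIs and the extremes, with MYC. RPS4X, RPL12, RPL13A, RPL19, RPS16, RPS27A, RPS28 and IFI6 fall outside this rule and were named after their values were seen. A few ribosomal genes are not reported here. The fold rule was tested on simulated data. Names of locus symbols came from RefSeq for ARS-UI_Ramb_v3.0, another assembly, from which no position was taken.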

Additional observations from a re-analysis of the deposited data

Results flagged for a closer look

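The share of the ribosomal protein genes in hair shaft-like over matrix-like cells had opposite directions in the libraries: the log2 ratio was 0.0487 in the straight and -0.00521 in the curly library, a difference of -0.0539, and this difference was not tested, since each wool type has 1 library. The opposite direction was lost with keratin and TCHH UMIs left out of the total (0.0611 and 0.00983) and with the 20 most abundant other genes of each class left out (0.0653 and 0.0169).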

How the results depend on the processing

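No paired analysis was possible because each wool type has 1 library and the labels number no pairs, and leaving out a replicate was not possible for the same reason. Values are log2 ratios of the share, averaged over the libraries. Clusters made without integration gave no value, since a class then lacked 25 cells in a library. No cluster was then named matrix-like. The HFSC-like clusters held 3 straight and 748 curly cells, and 383 straight and 4 curly cells, and the basal IFE-like cluster 0 and 514. The comparisons of classes thus rest on the integration. At resolution 0.8 the ratio was 0.0609 for IRS-like over matrix-like cells (main 0.0442), -0.35 for suprabasal over basal IFE-like cells (main -0.30), where 1 member then passed the fold in place of 0, and -0.95 for cornifying cells (main -0.90). In cells that passed a higher minimum of genes per cell the suprabasal ratio was -0.28, the cornification ratio -0.88 and curly over straight in matrix-like cells 0.0498 (main 0.0648). Without the highest 6% of Scrublet scores, hair shaft-like over matrix-like was 0.0248 (main 0.0217) and HFSC-like over matrix-like -0.30 (main -0.30). With keratin and TCHH UMIs left out of the total, the ratios were 0.0624 (IRS-like), 0.0354 (hair shaft-like), -0.27 (suprabasal) and -0.25 (HFSC-like), and -0.63 for cornification with its binning genes left out too. With means of the shares of single cells they were 0.0260 (IRS-like), 0.00672 (hair shaft-like) and 0.15 (curly over straight). Alternatives chosen after seeing the data were to leave the 20 most abundant other genes of each class out of the total, which gave 0.0507 (IRS-like), 0.0411 (hair shaft-like), -0.18 (suprabasal), -0.22 (HFSC-like) and 0.0586 (curly over straight), to add 5 ribosomal genes outside the rule to the members (RPL23, RPL34, FAU and RACK1 among them), which gave -0.29 for HFSC-like cells, and all alternatives of the cornification bins.

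No mean reversed its sign under any alternative run, but values of single libraries near 0 did. Hair shaft-like over matrix-like in the curly library went from -0.00521 to 0.00983 without keratin and TCHH UMIs and to 0.0169 without the 20 most abundant other genes, and IRS-like over matrix-like in the straight library from 0.00871 to -0.00128 with means of the shares of single cells. The other 45 values of these results stayed within their counting interval or, for counts of members, within 1.5 times the main count. Of the single members, RPS27L lay between -2.05 and -1.97, RPS12 between 0.64 and 0.66, RPLP0 between -1.10 and -0.996, RPS2 between -1.14 and -1.04, and RPL37A between -1.19 and -1.17 over their 6 settings. The small ratios of the IRS-like, hair shaft-like and curly over straight comparisons are larger than counting error only. Counting error leaves out the spread between cells. It also says nothing of the spread between lambs, since each library is 1 pool.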
